A study of Homo sapiens with 6 samples.

Results

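The proteasome is the barrel-shaped protease that degrades ubiquitin-tagged proteins, and its genes were followed here in PC9ER cells, which the labels give as a line of non-small cell lung cancer, with and without gefitinib, an inhibitor of the EGFR kinase. Members were chosen by symbol alone: of 15376 coding genes in the deposited table, 48 carried a symbol beginning with PSMA, PSMB, PSMC, PSMD, PSME, PSMF or PSMG and a digit. PSMC3IP is one of them by its symbol only, since it encodes a cofactor of meiotic recombination named after its binding partner; it is reported apart, which leaves 47 proteasome genes. The control group was 3 libraries of cells given the vehicle DMSO, and the gefitinib group was 3 libraries of cells given 1 µM gefitinib for 6 h. Both groups are PC9ER cells, and 72 h of vehicle is listed for all 6 libraries. The protocol written for the whole series names 72 h of vehicle or Notch inhibitor, and overnight serum starvation. No library's title names the Notch inhibitor. Growth medium held 10% FCS for all 6 libraries; whether control cells were starved of serum is not given, so drug and serum cannot be told apart. The labels do not describe the replicates as separate cultures, and the p-values below measure the spread between these libraries only. Each library held between 13674237 and 38581498 reads in coding genes. Values are normalized reads, the counts as the authors scaled them to one total, except where recovered reads, the counts before that scaling, are named.

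In the cell the 20S core particle is a stack of outer alpha rings and inner beta rings, with the protein-cutting sites on the beta subunits PSMB5, PSMB6 and PSMB7. The 19S regulatory particle caps the core: its base holds a ring of ATPases, the PSMC subunits, that unfold the substrate, and its lid holds the deubiquitinase PSMD14. Other caps, the PSME proteins, open the core without ubiquitin, and interferon induces PSMB8, PSMB9 and PSMB10, which replace the constitutive cutting subunits to form the immunoproteasome. When proteasome function is short, the transcription factor NFE2L1 raises subunit genes together in many cells.

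The proteasome genes did not move as one group. Of the 47 genes, all of them tested, 10 were higher with gefitinib and 15 lower at a limma adjusted p under 0.05, and 22 did not pass. Without gefitinib replicate 2, and likewise without gefitinib replicate 3, 7 were higher and 5 lower; leaving out control replicate 2 gave 8 and 9. Among all 15229 genes tested, 28.3% were called higher and 22.8% lower, against 21.3% and 31.9% of the proteasome genes. The proteasome share with any call, 53.2%, was thus near the 51.1% of all genes. This comparison depends on single libraries. Without gefitinib replicate 2 or 3, fewer genes of any kind were called. The share called lower was then smaller in proteasome genes than in all genes. Without control replicate 2 these shares were close, and without any other single library the proteasome share stayed larger. The median log2 difference (gefitinib minus control, on log2 of the normalized read count + 1) was -0.08 for the 47 genes and 0.10 for all tested genes. Size set them apart more than number did. Among the 40 proteasome genes with a mean of 200 or more normalized reads, 1 was called higher and 4 lower by at least 1.5-fold, 12.5% in all. Of all 8918 genes at that level 39.7% were called at that size. The median absolute log2 difference was 0.29 for these 40 and 0.46 for the 8918 genes. At that level 9 proteasome genes were called higher and 15 lower, against 33.7% and 28.8% of all genes. With DESeq2 size factors in place of the deposited totals, 6 proteasome genes were higher and 16 lower (25.7% and 25.1% of all genes). Removal of each library's GC trend gave 7 and 21 (28.0% and 30.2% of all genes).

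**Figure D1:**
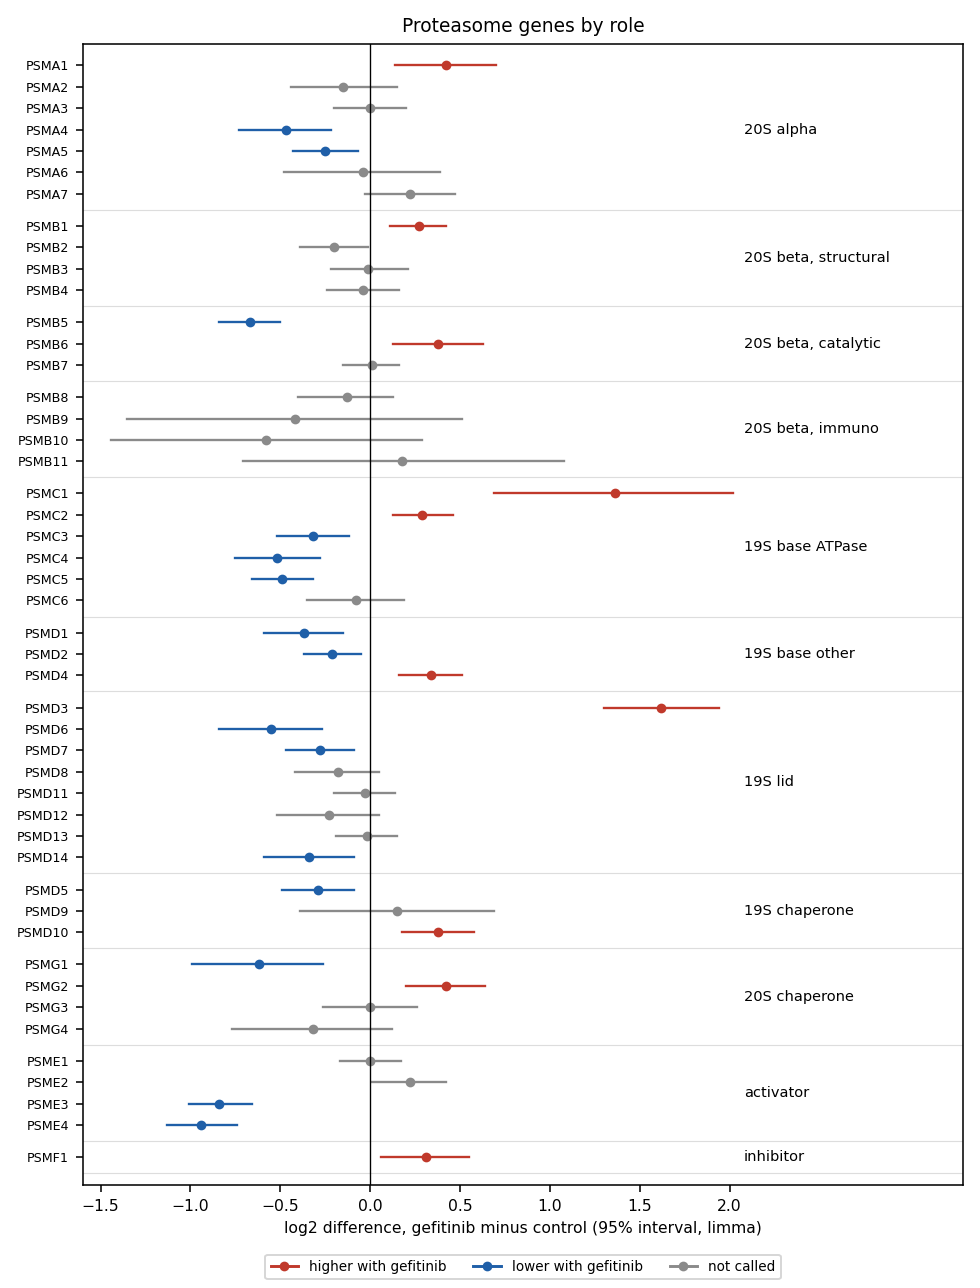
Log2 difference between gefitinib and control for the 47 proteasome genes, ordered by role, with limma's 95% interval (3 libraries per group). Most genes lie within 0.5 of 0, while PSMD3 and PSMC1 stand to the right at 1.62 and 1.36 and PSME3 and PSME4 to the left at -0.84 and -0.94.

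A set of 10 calls held in all 16 other ways of processing the data. In this set PSMC1, PSMD3, PSMD4, PSMD10 and PSMG2 were higher, and PSMB5, PSMC4, PSMC5, PSME3 and PSME4 lower. The other 15 calls were each lost in at least 1 of them. The same count is not given for all genes, so whether proteasome calls held more or less often than others is not known. Control and gefitinib libraries were fully separated for 27 of the 47 genes, or 57.4%, and for 58.0% of all genes tested.

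PSMD3, a scaffold subunit of the 19S lid (chromosome 17, 39980797 to 39997960, GRCh38), had the largest rise. It had 1313, 1807 and 1999 normalized reads in control replicates 1, 2 and 3, and 4861, 5332 and 5282 in gefitinib replicates 1, 2 and 3. Every gefitinib library was more than double the highest control, and the log2 rise was 1.62 ± 0.14 (SE; limma adjusted p = 2.02e-05), a 3.02-fold ratio of the means. No other lid gene with a PSM symbol rose. PSMD6, another lid subunit, fell, with 1980, 1698 and 1590 normalized reads in controls and 1403, 1149 and 1048 with gefitinib. The groups did not overlap, but the PSMD6 difference of -0.55 ± 0.13 was no longer called without gefitinib replicate 2 or 3 (limma adjusted p up to 0.0620). PSMD14, the deubiquitinase that strips ubiquitin from the substrate, had 3871, 3378 and 3159 normalized reads in controls and 3127, 2628 and 2492 with gefitinib. Its highest gefitinib library lay just under its lowest control, and the fall of 0.34 ± 0.11 (limma adjusted p = 0.0285) was lost without control replicate 1 or 2 or gefitinib replicate 2 or 3 (up to 0.168). PSMD7, the other lid subunit of the same protein fold, fell by 0.28 ± 0.08, a call also lost without control replicate 2 or gefitinib replicate 2 or 3. Of the 8 lid genes, 1 rose, 3 fell and 4, PSMD8, PSMD11, PSMD12 and PSMD13, did not pass, with differences from -0.23 to -0.02. Of all genes tested, 28.3% were called higher and 22.8% lower.

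The largest falls were in genes of the alternative caps. PSME4 encodes PA200, a nuclear activator of the core (chromosome 2, 53864067 to 53970840), and had 7856, 6889 and 6743 normalized reads in controls and 3948, 3726 and 3542 with gefitinib. PSME3 encodes the nuclear activator PA28-gamma (chromosome 17, 42824385 to 42843758), and had 5393, 5076 and 4837 in controls and 3021, 2776 and 2769 with gefitinib. For both genes all 3 gefitinib libraries lay far below all controls, and the differences were -0.94 ± 0.09 (limma adjusted p = 2.48e-05) and -0.84 ± 0.08 (2.81e-05). PSME1 and PSME2 encode the alpha and beta chains of the interferon-inducible activator PA28 and lie close together on chromosome 14. PSME1 had 1605, 1604 and 1592 normalized reads in controls and 1663, 1555 and 1595 with gefitinib, with a 95% interval of its log2 difference from -0.17 to 0.17. PSME2 had 655, 697 and 670 in controls and 774, 797 and 780 with gefitinib. The PSME2 groups did not overlap, yet the difference of 0.22 ± 0.09 missed the threshold (limma adjusted p = 0.0708, and 0.0354 without control replicate 1, over a range from 0.0354 to 0.324 in all alternatives). PSMF1, whose product PI31 binds the core and inhibits it in the test tube, had 2096, 2616 and 2696 in controls and 3203, 3050 and 2858 with gefitinib. It was called higher by 0.31 ± 0.11 (limma adjusted p = 0.0380), a call that ended in 11 of the 16 alternatives, TMM scaling and edgeR among them (adjusted p = 0.0621 and 0.0575).

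Each of the constitutive cutting subunits behaved differently. PSMB5, which carries the chymotrypsin-like site and is the target of bortezomib (chromosome 14, 23016543 to 23035230), had 2461, 2483 and 2483 normalized reads in controls and 1635, 1524 and 1502 with gefitinib. The control libraries were almost equal and the gefitinib libraries were all lower, a fall of 0.67 ± 0.08 (limma adjusted p = 8.01e-05). PSMB6, with the caspase-like site (chromosome 17, 4796144 to 4798503), had 2118, 2703 and 2847 in controls and 3284, 3228 and 3384 with gefitinib. PSMB6 was higher by 0.38 ± 0.11 (limma adjusted p = 0.0179); control replicate 1 was the lowest library, and the call was lost without any 1 of the gefitinib libraries (up to 0.123). PSMB7, with the trypsin-like site (chromosome 9, 124353466 to 124415444), had 4780, 4748 and 4513 in controls and 4805, 4655 and 4668 with gefitinib, with an interval from -0.15 to 0.16. Within a library, the ratio of PSMB5 to PSMB6 normalized reads was 1.16, 0.919 and 0.872 in controls and 0.498, 0.472 and 0.444 with gefitinib. The ratios did not overlap between groups (exact 2-sided permutation p = 0.10, the smallest that 3 against 3 libraries allow, and 0.10 after adjustment over 4 ratios). This separation follows from the values above, as PSMB5 was lower and PSMB6 higher in every gefitinib library. The ratio is therefore no separate support.

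**Figure D2:**
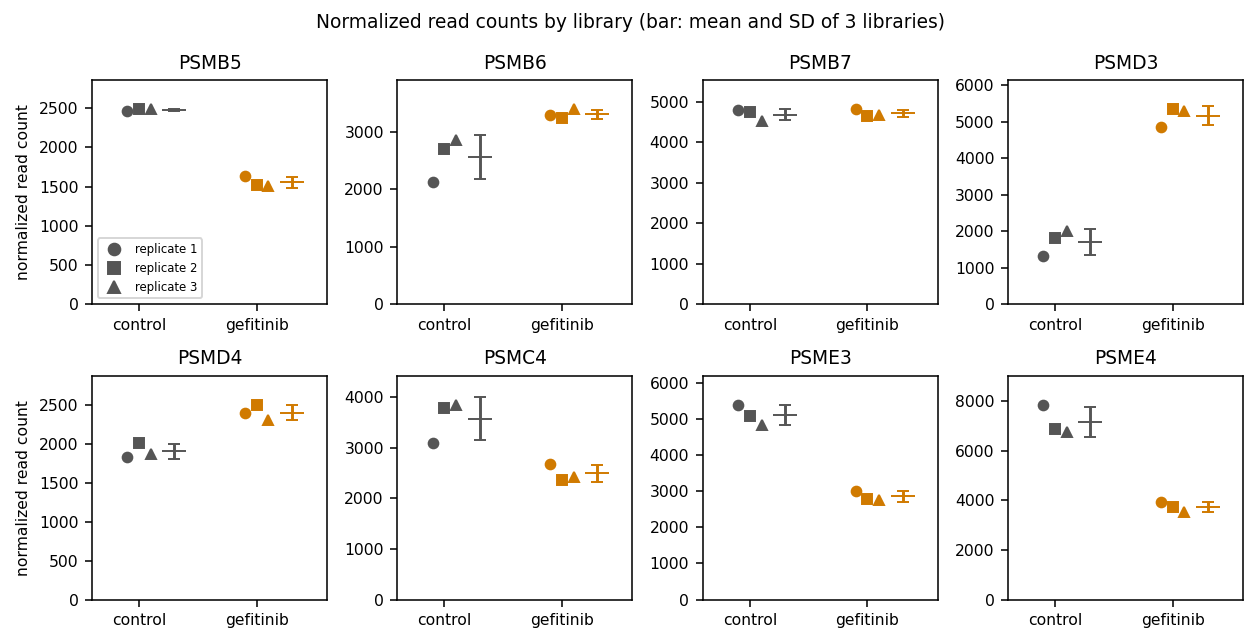
Normalized read counts in each library for 8 proteasome genes, with a bar at the mean and SD of the 3 libraries of each group; all axes start at 0. PSMB5, PSMC4, PSME3 and PSME4 are lower in every gefitinib library, PSMB6, PSMD3 and PSMD4 are higher, and the PSMB7 groups overlap.

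Promoter sequences are shown for the genes with the clearest changes, PSMD3, which rose, and PSME4, PSME3 and PSMB5, which fell. The RefSeq start of PSME3 lies inside the gene's span given above. RefSeq (GRCh38.p14) gave a start for 41 of the 47 genes. The 250 bases before it were searched on both strands for the antioxidant response core TGACNNNGC bound by NFE2L1 and its relatives, the NF-Y box CCAAT, the ETS core CCGGAAG, the E-box CACGTG and, by name, an interferon response element and the nuclear respiratory factor palindrome. Capitals mark every match on either strand, 5′ to 3′ on the gene's strand, and no matches overlap in these windows. They lie at chr17:39980557-39980806 (plus strand) for PSMD3, chr2:53970994-53971243 (minus) for PSME4, chr17:42833147-42833396 (plus) for PSME3 and chr14:23035221-23035470 (minus) for PSMB5.
PSMD3: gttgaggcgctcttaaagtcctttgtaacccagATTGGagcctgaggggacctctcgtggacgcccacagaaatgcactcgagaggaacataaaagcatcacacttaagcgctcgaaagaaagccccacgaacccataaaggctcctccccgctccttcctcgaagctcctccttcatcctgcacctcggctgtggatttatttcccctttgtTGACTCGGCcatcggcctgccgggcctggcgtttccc
PSME4: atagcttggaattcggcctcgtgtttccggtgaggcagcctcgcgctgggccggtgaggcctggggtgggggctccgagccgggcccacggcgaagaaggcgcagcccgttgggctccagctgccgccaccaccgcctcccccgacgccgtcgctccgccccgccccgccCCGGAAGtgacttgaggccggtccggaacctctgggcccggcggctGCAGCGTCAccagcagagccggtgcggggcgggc
PSME3: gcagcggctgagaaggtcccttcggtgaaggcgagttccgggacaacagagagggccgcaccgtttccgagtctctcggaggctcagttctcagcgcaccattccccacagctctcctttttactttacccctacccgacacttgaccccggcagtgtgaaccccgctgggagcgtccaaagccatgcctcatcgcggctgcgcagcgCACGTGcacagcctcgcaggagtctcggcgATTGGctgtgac
PSMB5: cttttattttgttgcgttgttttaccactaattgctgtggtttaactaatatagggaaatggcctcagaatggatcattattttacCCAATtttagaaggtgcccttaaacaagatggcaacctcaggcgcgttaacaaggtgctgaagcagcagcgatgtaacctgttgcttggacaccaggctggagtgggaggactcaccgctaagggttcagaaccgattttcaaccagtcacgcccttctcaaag
The antioxidant response core lies in PSMD3, which rose, at 37 bases before the start and, read on the other strand, in PSME4, which fell, at 34. PSMD3 also holds an NF-Y box and PSME4 an ETS core. PSMB5 holds 1 NF-Y box and PSME3 an E-box and an NF-Y box. Over the 41 promoters, 26.8% held the antioxidant response core, against 11.0% of all 27305 promoters of this length. These were 2 of 7 genes called higher, 3 of 15 called lower and 6 of 19 not called. The ETS core was in 22.0% and 8.82%, the NF-Y box in 43.9% and 33.0%, the interferon response element in 12.2% and 3.07% and the E-box in 7.32% and 6.49%. The palindrome was in none of the 41 and in 1.13% of all. A match is a run of letters and says nothing on binding in these cells.

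None of the immunoproteasome genes or the thymus gene PSMB11 was called, and PSMB9, PSMB10 and PSMB11 had few reads. PSMB8, the inducible counterpart of PSMB5, had 417, 460 and 503 normalized reads in controls and 435, 414 and 404 with gefitinib. These ranges overlap, and the difference of -0.13 had an interval from -0.40 to 0.13. Per length of merged exon, PSMB8 stood at 9.98%, 10.9% and 11.9% of PSMB5 in controls and at 15.7%, 16.0% and 15.8% with gefitinib. The groups did not overlap (exact 2-sided permutation p = 0.10 for the ratio, the smallest possible), and PSMB5 was the member of the pair that fell. The ratio is thus no separate support beyond the fall of PSMB5. PSMB9, the counterpart of PSMB6, had 14, 8 and 10 recovered reads in controls and 3, 7 and 26 with gefitinib. PSMB10, the counterpart of PSMB7, had 20, 22 and 34 in controls and 12, 12 and 40 with gefitinib. Both are too low for a difference of moderate size to be detectable, with intervals from -1.35 to 0.51 and from -1.44 to 0.29. PSMB11, which belongs to the thymus, had 0 reads of 60586751 in controls, which allows up to 3 at that depth, and 1 with gefitinib.

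Blood cells carry much immunoproteasome, and their markers were scarce. PTPRC had at most 1 read and CD3E at most 3 in a library. The 7 blood markers other than LCP1 summed to between 52.4 and 83.0 normalized reads in controls and between 62.2 and 79.5 with gefitinib. CD14, a monocyte receptor in that list, was called higher, from a mean of 0.322 to 7.12; its part in the results was not tested. LCP1, an actin bundler that many carcinoma lines also express, had means of 17882 and 8952. All 8 epithelial markers were present in every library. Summed, they lay between 89617 and 128923 in controls and between 74918 and 78386 with gefitinib. Of the 8, 6 were called lower and 1 higher, where 22.8% and 28.3% of all genes were. The lower calls of KRT8, CDH1, KRT19, KRT7, CLDN4 and KRT18 held in 11, 12, 14, 15, 15 and 16 of 16 alternatives. The rise of EPCAM held in 10. The 4 fibroblast markers measured summed to between 32.4 and 71.4 in controls and between 47.6 and 68.0 with gefitinib.

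Genes of the alpha ring and the structural beta subunits held small differences. PSMA4 fell, with 5183, 4465 and 4020 normalized reads in controls and 3598, 3298 and 2933 with gefitinib, a difference of -0.47 ± 0.11 (limma adjusted p = 0.00629). PSMA5, the most abundant alpha gene by reads, fell by 0.25 ± 0.08. Both calls were lost without gefitinib replicate 2 or 3, and that of PSMA5 also without control replicate 2. PSMA1 had 817, 696 and 606 in controls and 880, 992 and 943 with gefitinib, a rise of 0.42 ± 0.12 that was lost in 7 alternatives. PSMB1 had 5295, 5181 and 5064 in controls and 6333, 6062 and 6311 with gefitinib. The PSMB1 groups stood apart, but the rise of 0.27 ± 0.07 (limma adjusted p = 0.00897) was lost with TMM factors, DESeq2 size factors, the GC trend removed and both count tests (up to 0.117). Over the 7 alpha genes 1 rose, 2 fell and 4 did not pass. Of the 4 structural beta genes 1 rose and 3 did not pass. The shares of all tested genes called were 28.3% higher and 22.8% lower. PSMA8, a testis form, was not analysed here.

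Of the 9 genes of the 19S base 3 rose, 5 fell and 1 did not pass; these were 3 higher and 2 lower without gefitinib replicate 2 or 3, and 3 and 3 without control replicate 2 or 3. PSMC4 had 3083, 3785 and 3844 normalized reads in controls and 2684, 2361 and 2423 with gefitinib, and PSMC5 had 3872, 4211 and 4116 against 3010, 2897 and 2777. For both ATPase genes every gefitinib library was below every control, with differences of -0.52 ± 0.10 and -0.49 ± 0.07 (limma adjusted p = 0.00248 and 0.000502). PSMC3 fell by 0.32 ± 0.09 and PSMC2 rose by 0.29 ± 0.07. The PSMC3 call was lost without any 1 of control replicates 2 and 3 and gefitinib replicates 2 and 3, and the PSMC2 call with TMM factors (limma adjusted p = 0.0502) and 4 other alternatives. PSMD4, the ubiquitin receptor of the base, went the other way from the large scaffold subunits PSMD1 and PSMD2. It had 1835, 2013 and 1877 in controls and 2408, 2508 and 2307 with gefitinib, a rise of 0.34 ± 0.08 (limma adjusted p = 0.00584). PSMD1 had 6352, 5841 and 5828 in controls and 5335, 4461 and 4198 with gefitinib, a fall of 0.37 ± 0.10, and PSMD2 fell by 0.21 ± 0.07. These falls were lost without gefitinib replicate 2 or 3 (up to 0.0836 and 0.103), and that of PSMD2 also without control replicate 2 or 3. In the 17 genes of base and lid together, 4 rose and 8 fell, and 3 rose and 3 fell of 14 genes of the core rings, where 28.3% and 22.8% of all genes were called. Without gefitinib replicate 2 or 3 these were 4 and 2 for base and lid and 1 and 1 for the core, and without control replicate 2 they were 4 and 4, and 2 and 2; whether the shares differ was not tested.

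Assembly chaperones, which build the particles and then leave, moved in both directions. PSMD10 (gankyrin), a chaperone of the base, had 2130, 1857 and 1877 normalized reads in controls and 2719, 2453 and 2435 with gefitinib. PSMD5, another base chaperone, had 2236, 1899 and 1911 in controls and 1694, 1613 and 1617 with gefitinib. The rise of PSMD10 was 0.38 ± 0.09 and the fall of PSMD5 0.29 ± 0.09 (limma adjusted p = 0.00596 and 0.0217), and the latter was lost without gefitinib replicate 2 or 3. PSMG1 and PSMG2 encode partners in a dimer that starts the alpha ring. PSMG1 had 767, 710 and 621 in controls and 575, 396 and 405 with gefitinib, whereas PSMG2 had 1107, 1014 and 1070 in controls and 1555, 1454 and 1283 with gefitinib. Neither gene's groups overlapped: PSMG1 fell by 0.62 ± 0.16 and PSMG2 rose by 0.42 ± 0.10 (limma adjusted p = 0.00967 and 0.00526). The PSMG1 call was lost without any 1 of control replicates 1 and 2 and gefitinib replicates 2 and 3. PSMG3, PSMG4 and PSMD9 did not pass. Summed over the 47 genes, proteasome transcripts took 0.796%, 0.800% and 0.784% of coding reads in controls and 0.760%, 0.718% and 0.702% with gefitinib, ranges that do not overlap. This sum includes PSME3 and PSME4, which had the largest falls. The core ring genes alone took 0.278%, 0.285% and 0.279% in controls and 0.280%, 0.266% and 0.265% with gefitinib, ranges that overlap. The base and lid genes took 0.380%, 0.383% and 0.375% against 0.368%, 0.346% and 0.335%, which do not overlap.

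Levels per length were uneven among subunits that enter the particle in equal numbers. In RPKM, reads per kb of merged exon at equal library size, control means of the 14 core ring genes ran from 0.864 for PSMA6 to 146 for PSMB4, and those of the 6 ATPase genes from 0.120 for PSMC1 to 132 for PSMC3. The lowest of them share exons with other genes. In PSMA1, PSMA2, PSMA6, PSMB10 and PSMD9 between 58.3% and 97.1% of coding bases lie in exons of another gene on the same strand. For PSMC1 (chromosome 14, 90256495 to 90275429), 47.7% of coding bases and 75.8% of all exon bases lie in exons of NRDE2 on the opposite strand, and 13 pseudogenes carry its name. The sources used here do not say whether counting used the strand or how reads in shared exons were treated, so the level of these 6 genes is uncertain. PSMC1 was called higher by 1.36 ± 0.30 (limma adjusted p = 0.00403), from 19, 11 and 15 recovered reads in controls to 21, 43 and 90 with gefitinib in libraries of unlike depth. In normalized reads these were 13.4, 12.3 and 14.5 against 27.8, 38.9 and 42.2, so all gefitinib libraries were higher, at a level far below the other ATPase genes. NRDE2 had 444 ± 42.4 and 325 ± 113 normalized reads (SD, n = 3; limma adjusted p = 0.0891, over which 11 of 16 alternatives also made no call).

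**Figure D3:**
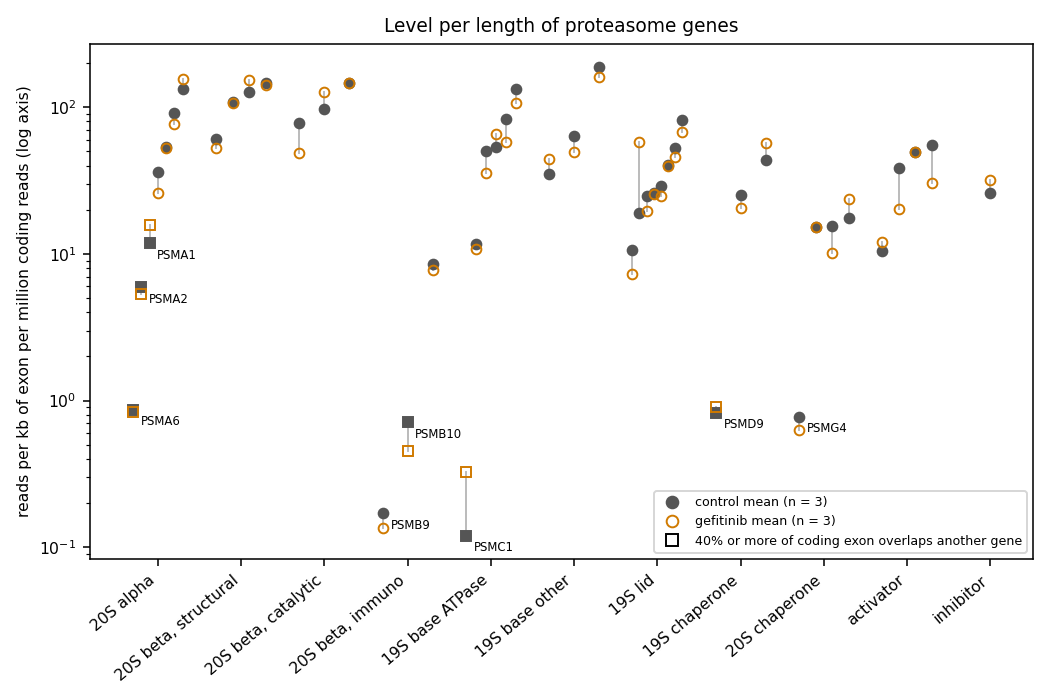
Reads per kb of merged exon, scaled to coding reads per library (RPKM, log axis), for proteasome genes by role, with filled marks for control means and open marks for gefitinib means of 3 libraries; PSMB11, at 0 in controls, is not drawn. Squares mark the 6 genes with 40% or more of their coding bases in exons of another gene, which include PSMC1 and PSMA6 at the bottom of their groups.

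PSMC3IP, the gene that only shares the symbol, had 296, 283 and 285 normalized reads in controls and 640, 598 and 626 with gefitinib. All gefitinib libraries were about double the controls, a rise of 1.11 ± 0.11 (limma adjusted p = 3.43e-05). Of its exon bases 29.9% lie in exons of MLX on the opposite strand; MLX fell by 0.94 ± 0.14, the other direction.

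Control replicate 1 stood apart from the other controls in a way that followed base composition. Over the 40 proteasome genes with a mean of 200 or more, its log2 distance from the mean of the other controls had a Pearson r of -0.75 with the GC content of the longest transcript. The same r was -0.83 over 8909 genes of any kind, and all of these points come from the same libraries. In 14 of the 15 genes below 45% GC it was the highest control, and in 10 of the 13 above 52% GC the lowest. PSMD3, PSMB6, PSMC4 and PSMF1, for example, had their lowest control value there, and PSMD14, PSMD6, PSMA4 and PSME4 their highest. The part of base composition in these calls was not tested beyond the GC correction. That correction took out each library's trend against the mean of all 6 libraries. A GC trend that differs between the groups is therefore removed along with that of control replicate 1. With the GC trend removed, PSMD3, PSMB5, PSME3 and PSME4 differed by 1.55, -0.73, -0.89 and -1.07. The same correction ended the calls of PSMB1, PSMC2 and PSMF1, and PSMA2, PSMA3, PSMB2, PSMC6, PSMD8 and PSMD12 were then called lower. With control replicate 1 left out instead, PSMA2, PSMA3, PSMC6 and PSMD12 differed by -0.07, 0.08, 0.05 and -0.14 and were not called. PSMB2 and PSMD8 differed there by -0.25 and -0.29 and were called lower. Gefitinib replicate 1 was the highest gefitinib library for 32 of the 40 genes. The same share is not given for all genes at that level. Leaving out gefitinib replicate 2, and likewise gefitinib replicate 3, lost 13 proteasome calls. Fewer genes of any kind were called in these settings too. Whether gefitinib replicate 1 had a part in these losses was not tested.

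**Figure D4:**
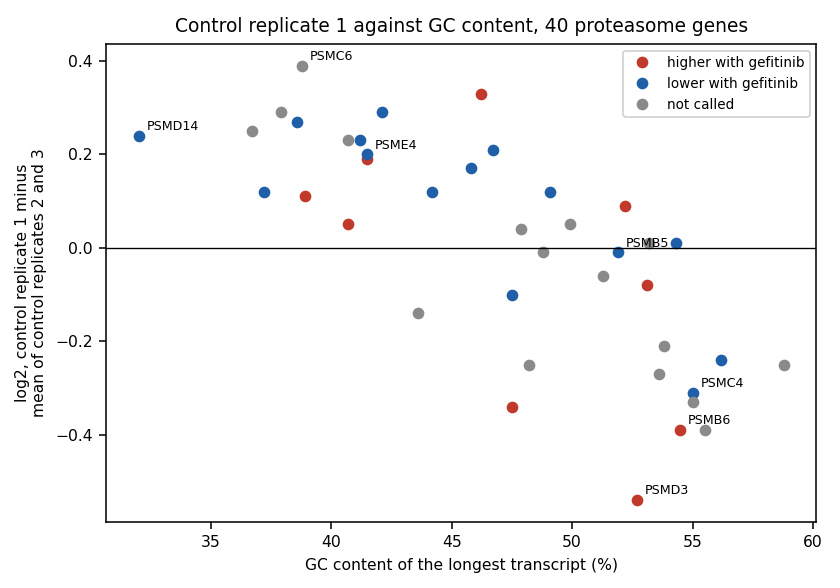
Log2 distance of control replicate 1 from the mean of control replicates 2 and 3 against GC content of the longest transcript, 1 point for each of 40 proteasome genes, coloured by the call with gefitinib. Nearly all genes of low GC content lie above 0 and most genes of high GC content below it, with PSMD3 lowest and PSMC6 highest.

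Genes that serve the proteasome also moved in both directions. Of 13 further components and partners, 3 rose, 4 fell and 6 did not pass. Across all genes tested, 28.3% were called higher and 22.8% lower, the shares to set beside this count and those of the next lists. Whether any list differs from them was not tested. SHFM1, also called SEM1, a small lid subunit outside the symbol rule, rose from 912 ± 48.2 to 1608 ± 67.9 normalized reads (SD, n = 3), by 0.82 ± 0.09 (SE; limma adjusted p = 5.56e-05). PAAF1, a chaperone that holds the base ATPases, fell from 1088 ± 41.1 to 564 ± 60.8, and KIAA0368 (ECPAS), which links core and cap, from 4141 ± 188 to 2773 ± 28.9. POMP, the maturation factor of the core, and ADRM1, a ubiquitin receptor, did not pass, at -0.14 ± 0.09 and 0.14 ± 0.19 (limma adjusted p = 0.247 and 0.564). POMP was called lower with the GC trend removed (0.000401).

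Of 8 genes of NFE2L1, its processing and its partners, 4 rose, 1 fell and 3 did not pass. DDI2, the protease that cleaves NFE2L1 into its active form, rose from 1630 ± 28.1 to 3257 ± 309, by 0.99 ± 0.09 (limma adjusted p = 2.09e-05). NGLY1, which removes its sugar chains, rose from 629 ± 54.6 to 901 ± 67.0 (adjusted p = 0.00288). NFE2L1 fell from 13323 ± 1394 to 10804 ± 1397 (limma adjusted p = 0.0484), a call lost in 6 of 16 alternatives. Its groups overlapped, with gefitinib replicate 1 at 12333 above control replicate 1 at 11715. The ubiquitin genes UBB and RPS27A rose, by 0.58 and 0.47. UBA6, which encodes an alternative ubiquitin-activating enzyme, fell by 0.92 ± 0.11, and UBA1, the main one, did not pass at 0.10 ± 0.13. Among 6 shuttle factors, which carry tagged proteins to the proteasome, none rose; RAD23B fell from 6814 ± 559 to 3866 ± 209 and UBQLN2 from 1550 ± 69.9 to 892 ± 92.9. Of 10 genes of the unfoldase p97 and its cofactors 5 rose, 2 fell and 3 did not pass. The p97 gene VCP fell by 0.44 ± 0.09, while its cofactor genes UBXN7 and NPLOC4 rose by 1.02 ± 0.08 and 0.91 ± 0.11.

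**Figure D5:**
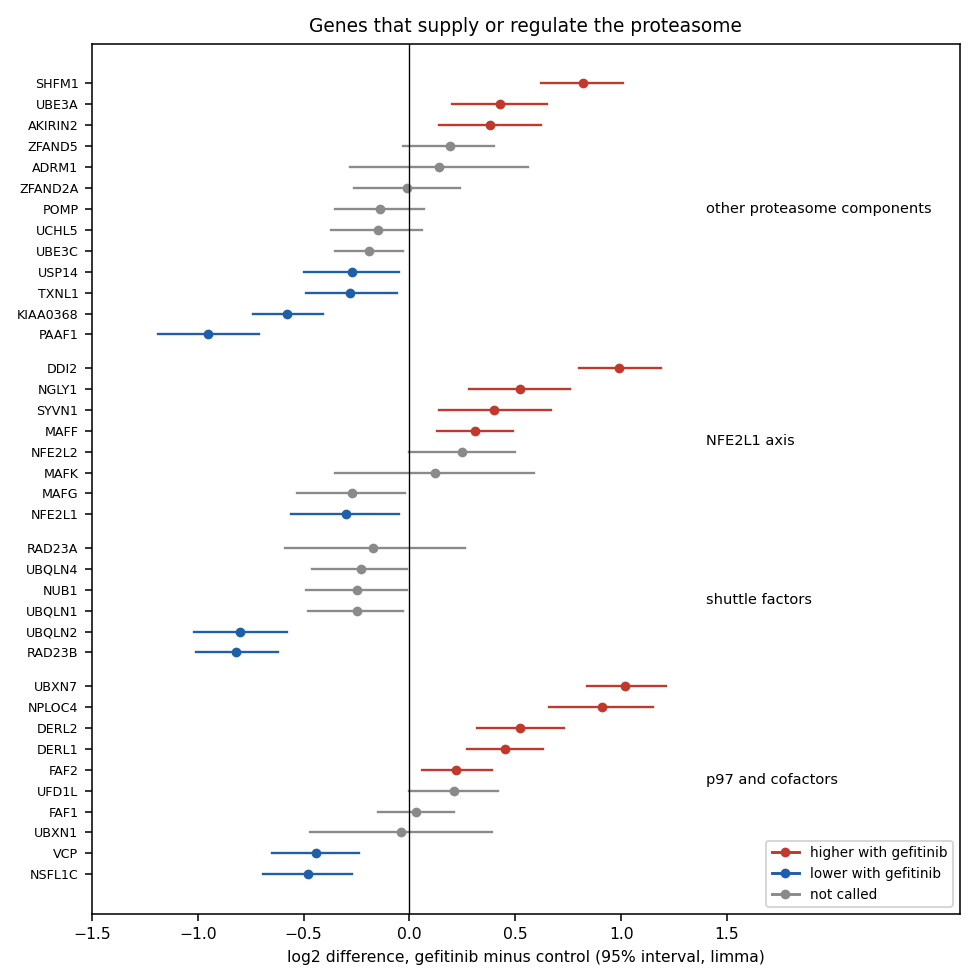
Log2 difference between gefitinib and control with limma's 95% interval for genes that supply or regulate the proteasome, in 4 lists (3 libraries per group). All 6 shuttle factors lie to the left of 0, and DDI2 and UBXN7 reach 0.99 and 1.02.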

How the data were processed

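Illumina libraries were made from total RNA, 3 per group, per the labels' protocols. Per the submitters' processing notes, STAR, HTSeq and GRCh38 were used, without versions. The deposited table holds a signal: reads per coding gene, which the authors brought to the same sum, 18085800, in each library. All values were whole multiples of 1 step per library (100.0% within 0.01 read), which gave 13674237 to 38581498 coding reads per library. A second deposited table was used for gene IDs and positions only; its 6 per-sample columns match no label and were left out.

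Groups follow the sample titles. limma-trend 3.58.1 (R 4.3.3) was fitted to log2(value + 1) for 15229 genes above 0 in a library, 2-sided, with Benjamini-Hochberg adjustment over all of them and a threshold of 0.05. Differences are gefitinib minus control with SE and understate changes of low genes. The test was also run on simulated counts with few changed genes and no GC trend between libraries. These data differ on both points, so that run is not used as support and its outcome is not given. Alternatives used edgeR 4.0.16 and DESeq2 1.42.0 on the recovered reads, other scalings, pseudocounts and filters, GC correction (loess, span 0.3), a replicate block and leaving out each library. Lengths and coordinates are from GENCODE 29.

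Named genes were PSMB5 to PSMB10, the PSME genes, PSMF1, PSMC3IP, PSMD4, PSMD14, the largest rise and fall of each role, and set pathway genes; others complete a count and were named after their values were seen. Members and lists were chosen with earlier results of these data known. A few genes of these lists are not reported here.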

Additional observations from a re-analysis of the deposited data

How the results depend on the processing

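Counts of proteasome genes depend on scaling and on single libraries. The number called higher, 10, was 6 with DESeq2 size factors and 6 with DESeq2, and the number called lower, 15, ranged from 5 to 17 when 1 library was left out, with the lowest value without gefitinib replicate 2 or 3, where 7 were higher, and 9 without control replicate 2. The median log2 difference of -0.08 was -0.14 with TMM factors, -0.15 with DESeq2 size factors, -0.17 with DESeq2, -0.18 with edgeR, and -0.21 with the GC trend removed, with or without the replicate block. The same median over all tested genes was 0.10 as deposited, 0.05 with TMM factors and -0.00 with the GC trend removed. The value of -0.00 follows largely from the method, since the GC correction also centres each library on the mean of all libraries. Pseudocounts of 0.5 and 5 and a mean of 10 or more changed no proteasome call. Without gefitinib replicate 2 or 3, a smaller share of proteasome genes than of all genes was called lower, unlike in the full data. The causes were not tested.

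Deviations of same-numbered libraries correlated at 0.13, 0.04 and 0.09. Those of unlike-numbered control and gefitinib libraries correlated at -0.13 to 0.09. Whether replicate numbers pair the libraries was not tested further. With the replicate block, 9 proteasome genes were higher and 16 lower; PSMF1 lost its call and PSMD12 gained one. Depth limited PSMB9, PSMB10, PSMB11 and PSMC1, with at most 90 reads in a library. The limit on PSMB11 reads covers counting error only.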

Other observations

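The genes around the immunoproteasome were mixed. TAP1, the peptide transporter gene next to PSMB9, rose (limma adjusted p = 0.00655), with means of 348 ± 56.7 and 517 ± 26.3 normalized reads (SD over 3 libraries), and TAP2 fell from 855 ± 42.7 to 591 ± 104 (adjusted p = 0.00683; lost in 2 of 16 alternatives). Of 8 genes for peptide loading 4 rose, 1 fell and 3 did not pass, where 28.3% of all genes were called higher and 22.8% lower. Calreticulin, encoded by CALR, had the smallest p of the 8 and rose from 13875 ± 362 to 23613 ± 713. Of genes in the interferon response, the receptor gene IFNGR2 fell from 838 ± 22.9 to 369 ± 7.82, while the kinase gene JAK2 rose from 94.0 ± 10.7 to 220 ± 41.6. IRF1 had 187 ± 18.8 and 245 ± 52.1 (limma adjusted p = 0.126).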
